A study of Mus musculus with 15 samples.

Results

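The 42 genes described here mark the cells that make up blood and lymphatic vessels, and they were read in the mRNA of 15 mouse tumors. They were taken as a list of vessel genes named for the cells they mark, drawn up with earlier results of these data known, from the 23329 genes counted in the study. The list holds 36 endothelial genes, which comprise 10 receptors, 9 surface and junction proteins, 7 transcription factors, 6 ligands and other secreted proteins and 4 enzymes and effectors, and 6 genes of mural cells. All 42 genes had enough reads to be tested.

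Endothelial cells line every vessel and are held together by junction proteins such as VE-cadherin (Cdh5) and CD31 (Pecam1). New vessels sprout when vascular endothelial growth factor from the tissue activates its receptor Kdr on these cells, whereas the angiopoietin receptor Tek and mural cells wrapped around the tube keep mature vessels quiet. Mural cells are the pericytes of capillaries and the smooth muscle cells of larger vessels, and solid tumors grow on vessels of the host.

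The lymphomas came from cervical lymph nodes of EμMyc mice, in which an immunoglobulin enhancer drives the Myc oncogene in B cells, on the C57BL/6 background. The neuroblastomas came from paraspinal thoracic tumors of Th-MycN mice, which express MYCN in sympathetic neuroblasts from the promoter of tyrosine hydroxylase, on a Sv129/C57BL6 background. Each oncogene was studied with Casp2 wild type and in mice that lack both copies of Casp2, the gene of the protease caspase-2, which gave 4 EμMyc and 4 Th-MycN tumors and, without Casp2, 3 EμMyc/Casp2-/- and 4 Th-MycN/Casp2-/- tumors, each from a different mouse. The purpose of the study was to compare tumors that lack Casp2 with their wild-type counterparts, since its loss speeds the lymphoma and delays the neuroblastoma. Both groups of neuroblastomas were chosen for little or no visible blood supply, so the levels of vessel genes in them are those of poorly vascularized tumors and not of this tumor type at large. Lymphomas arose at 13 to 19 weeks of age with Casp2 and at 8 to 12 weeks without it, ranges that do not meet, so that their genotype and age at onset cannot be told apart. Neuroblastomas arose at 10 to 21 weeks with Casp2 and at 15 to 24 weeks without it. Tumor type, strain and site also change together and cannot be told apart.

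Levels are given as CPM, counts per 1000000 reads assigned to genes in that tumor, after a scaling between libraries. The libraries held 4940464 to 17638029 such reads, with EuMycC2ko215 the shallowest, and 3 reads correspond to 0.170 to 0.607 CPM. Casp2 itself was at 158.6 ± 34.2 CPM (SD, n = 4) in EμMyc and 62.0 ± 12.6 CPM (n = 3) in EμMyc/Casp2-/- tumors, and at 100.3 ± 20.9 CPM (n = 4) in Th-MycN and 58.0 ± 16.7 CPM (n = 4) in Th-MycN/Casp2-/- tumors. These counts cover the whole gene and cannot show which exons were lost. Several tumors stood apart in ways that touch the vessel genes. EuMyc743b had the highest level of its group for 27 of the 36 endothelial and 5 of the 6 mural genes, MYCN175 had the highest of its group for 22 of 36 endothelial genes and, with MYCNC2ko118, the most skeletal muscle RNA (186.5 and 331 CPM summed over 6 markers, against 6.68 to 9.30 CPM in the other 6 neuroblastomas), and EuMycC2ko215 held 1213 CPM of 6 T cell markers against 21.3 to 134.8 CPM in the other 6 lymphomas. In whole tumor tissue, fewer endothelial cells and less RNA of a gene in each endothelial cell cannot be told apart.

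The labelled tumor types were checked against their own markers. The 7 B cell markers summed to 2043 to 3615 CPM in the lymphomas and 8.02 to 22.3 CPM in the neuroblastomas, and the 7 sympathetic neuroblast markers to 2276 to 4634 CPM in the neuroblastomas and 1.81 to 15.3 CPM in the lymphomas. Among the endothelial genes, 8 are also made by blood cells as a matter of background knowledge, namely Pecam1, Icam2, S1pr1, Cd34, Fli1, Erg, Tal1 and Lyl1, and these were summed apart from the other 28 endothelial genes.

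**Figure D1:**
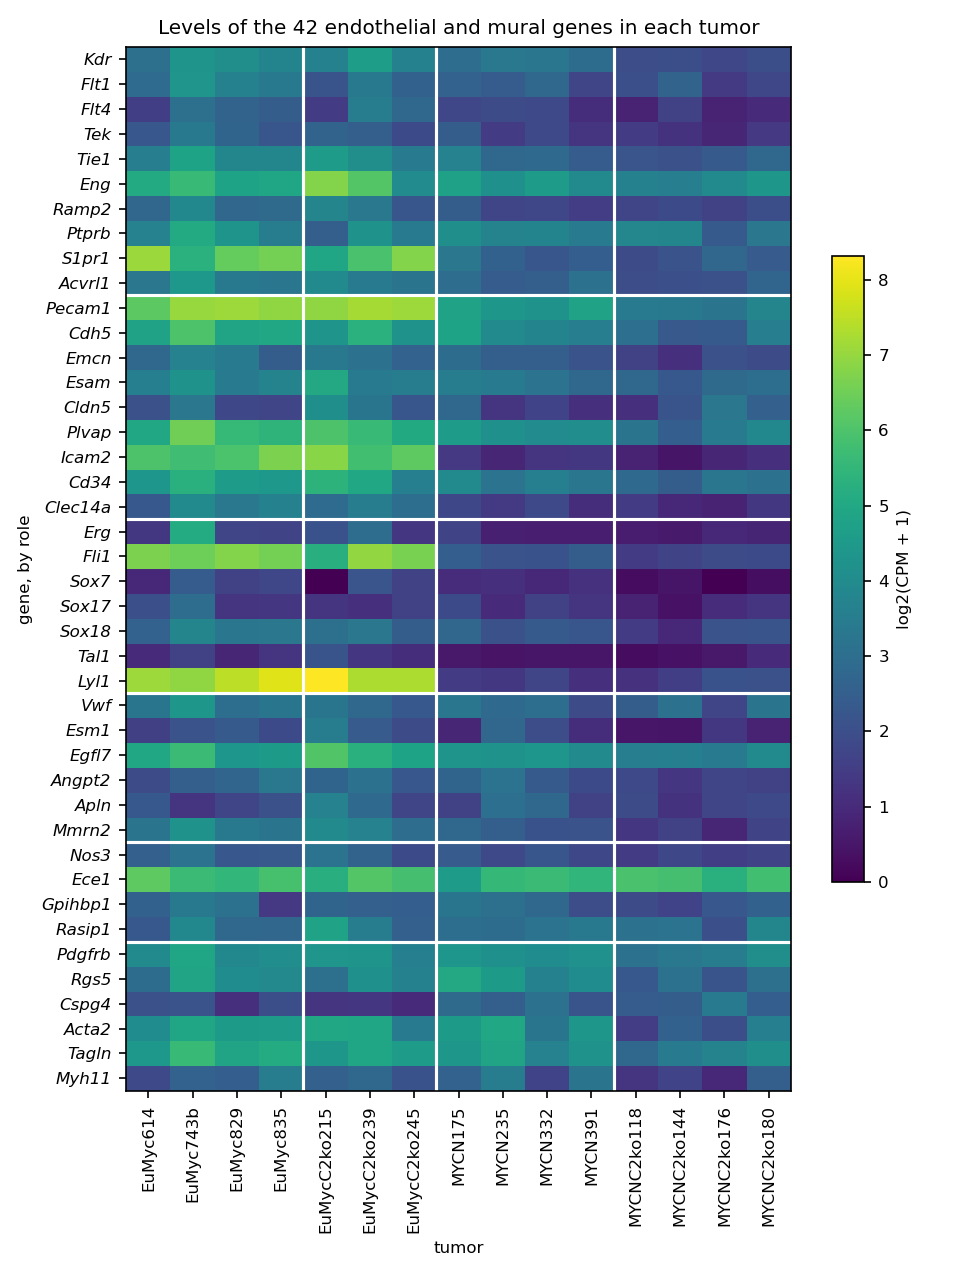
Level of each of the 42 vessel genes (rows, grouped by role and separated by white lines: receptors, surface and junction proteins, transcription factors, ligands and secreted proteins, enzymes and effectors, mural genes) in each of the 15 tumors (columns, by group), as log2(CPM + 1). Lyl1, Icam2, Fli1, Pecam1 and S1pr1 are brighter in the 7 lymphomas than in the 8 neuroblastomas, and Ece1 is bright in every tumor.

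Per length of gene, the vessel genes of the lymphomas were led by those shared with blood cells. In EμMyc tumors the median was 86.9 CPM per kb of exon for Lyl1, a transcription factor of blood and endothelial cells, 48.6 for Icam2, an adhesion molecule, 30.5 for Pecam1, 29.5 for the ETS factor Fli1 and 28.6 for S1pr1, the sphingosine-1-phosphate receptor by which lymphocytes leave lymph nodes. The levels of Icam2 and Pecam1 did not overlap between tumors, whereas those of Pecam1, Fli1 and S1pr1 did. In Th-MycN tumors contractile and secreted vessel genes led instead, with medians of 12.1 CPM per kb for the smooth muscle protein Tagln, 10.4 for smooth muscle actin Acta2, 9.78 for the secreted factor Egfl7, 9.27 for the endothelin-converting enzyme Ece1 and 8.34 for Plvap, the diaphragm protein of permeable endothelium, and the levels of neighbours among these 5 genes overlapped. In Th-MycN/Casp2-/- tumors Ece1 led at 11.7 CPM per kb, followed by Tagln at 7.03 and Egfl7 at 5.86.

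Between Casp2 genotypes, called differences in vessel genes were found in neuroblastoma. Th-MycN/Casp2-/- tumors had lower levels of Pecam1, of Kdr, the main receptor of vascular endothelial growth factor, and of the mural genes Rgs5 and Acta2. These 4 of 42 genes (9.52%) fell by edgeR's likelihood ratio test at an adjusted p under 0.05 and a change of over 2-fold, and 0 rose, against 0.625% of all 14880 genes tested that fell and 0.188% that rose. Of the 42 log2 fold changes, 36 were below 0, their median was -0.74, and 15 had an unadjusted p under 0.05, while 50.4% of all genes tested were below 0 with a median of -0.002. By edgeR's stricter quasi-likelihood test, 0 of the 42 genes passed, against 0.0269% of all genes that fell and 0.00672% that rose by it, and the lowest adjusted p among the 42 genes was 0.0812.

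Pecam1, the adhesion molecule at contacts between endothelial cells, was at 26.6, 20.4, 17.9 and 26.99 CPM in the 4 Th-MycN tumors and at 9.72, 9.32, 8.29 and 12.7 CPM in the 4 Th-MycN/Casp2-/- tumors. Every wild-type tumor lay above every knockout tumor. The log2 fold change was -1.20 ± 0.24 (SE), with an adjusted p of 0.0006 by edgeR's likelihood ratio test and 0.0812 by its quasi-likelihood test. The likelihood ratio call held in each of the 8 fits that left out 1 neuroblastoma.

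Kdr stood at 6.90, 9.08, 8.71 and 6.67 CPM in Th-MycN and 2.95, 2.96, 2.41 and 3.01 CPM in Th-MycN/Casp2-/- tumors. The knockout tumors were tightly grouped and all below the lowest wild-type tumor, at a mean of 2.83 ± 0.28 CPM (SD, n = 4) against 7.84 ± 1.23 CPM (n = 4). The log2 fold change was -1.46 ± 0.38 (edgeR, adjusted p 0.0308 by the likelihood ratio and 0.220 by the quasi-likelihood test). These levels rest on 25 to 46 reads in each knockout tumor and 108 to 151 in each wild-type tumor.

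Mural cells were represented by a regulator of G protein signalling, a proteoglycan, a growth factor receptor and 3 contractile proteins, and 5 of these 6 genes had log2 fold changes below 0. Rgs5, which is abundant in pericytes, was at 31.3, 22.2, 11.5 and 15.6 CPM in Th-MycN and 3.89, 7.52, 3.47 and 7.39 CPM in Th-MycN/Casp2-/- tumors, and the groups did not overlap. Acta2 was at 22.4, 31.0, 8.43 and 20.0 CPM and 1.87, 5.01, 2.99 and 11.0 CPM in the same order, with the wild-type tumor MYCN332 below the knockout tumor MYCNC2ko180. The log2 fold changes were -1.85 ± 0.47 for Rgs5 and -1.97 ± 0.53 for Acta2, with adjusted p-values of 0.0265 and 0.0402 by edgeR's likelihood ratio test and 0.224 and 0.270 by its quasi-likelihood test. Without 1 of the 8 neuroblastomas at a time the likelihood ratio test called Acta2 in 2, Rgs5 in 2 and Kdr in 1 of 8 fits, and between 1 and 3 of the 42 genes in all. In these fits, which have fewer samples, the log2 fold changes stayed between -2.63 and -1.68 for Acta2, between -2.04 and -1.55 for Rgs5 and between -1.54 and -1.38 for Kdr.

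The remaining mural genes did not pass the test. Smooth muscle myosin Myh11 was at 5.13, 10.5, 2.19 and 8.15 CPM in Th-MycN and 1.37, 2.18, 0.964 and 4.79 CPM in Th-MycN/Casp2-/- tumors (log2 fold change -1.48 ± 0.59, adjusted p 0.360 by edgeR's likelihood ratio test). Tagln was at 20.2, 28.1, 11.9 and 18.5 CPM and 5.91, 10.1, 12.3 and 16.6 CPM (-0.81 ± 0.36, adjusted p 0.494), and Pdgfrb, the receptor by which pericytes are recruited, at 19.5, 16.99, 15.4 and 17.5 CPM and 7.56, 9.00, 10.6 and 16.4 CPM (-0.67 ± 0.34, adjusted p 0.633). In each of these 3 genes the knockout tumors reached into the wild-type range. Cspg4, the NG2 proteoglycan of pericytes, was the 1 mural gene without a lower mean, at 6.29, 4.72, 7.79 and 3.52 CPM and 4.32, 4.498, 9.74 and 4.55 CPM. Summed, the 6 mural genes came to 57.3 to 113.5 CPM in Th-MycN and 24.9 to 60.7 CPM in Th-MycN/Casp2-/- tumors.

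**Figure D2:**
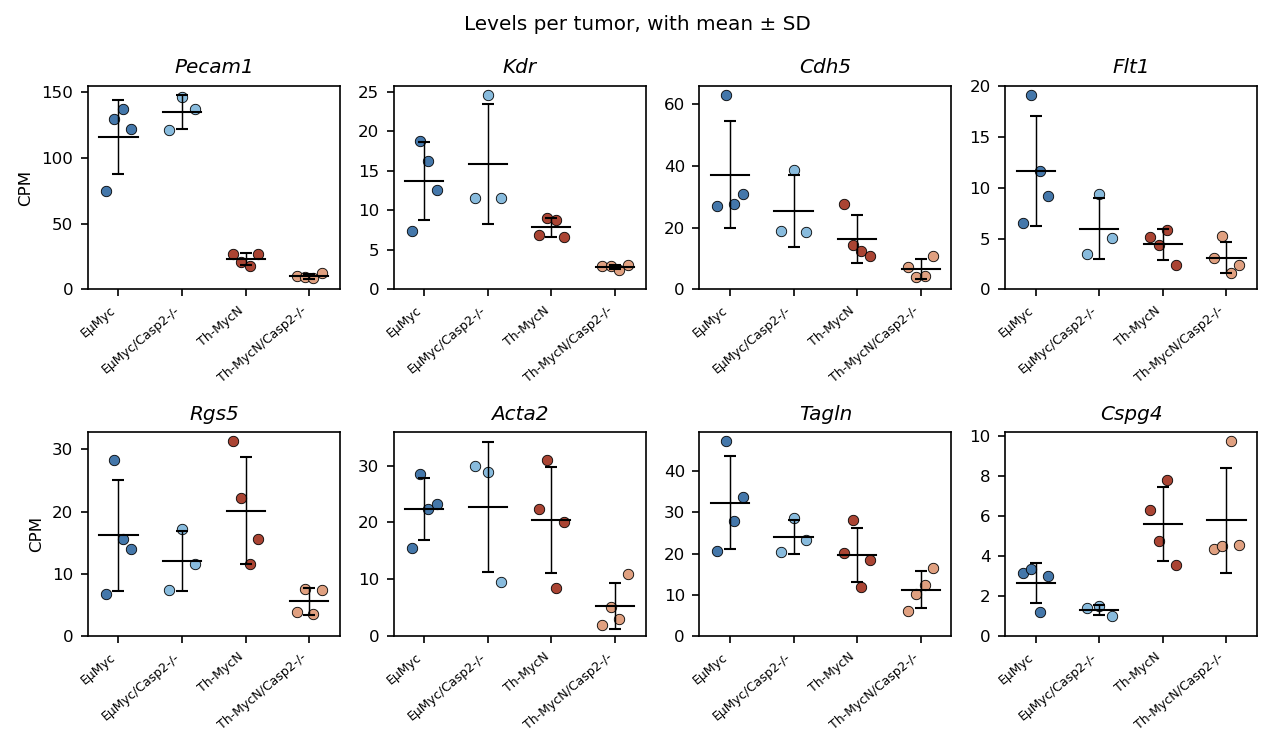
Level of 8 vessel genes in each tumor (points, CPM on linear axes that start at 0) with the mean and SD of each of the 4 groups (lines and bars). Pecam1 and Kdr of the 4 Th-MycN/Casp2-/- tumors lie below all 4 Th-MycN tumors, and Cspg4 does not differ in this way.

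The promoters of Kdr, Rgs5 and Acta2 are printed because they belong to 3 of the 4 genes that fell and were among the 21 of 42 vessel genes matched in the promoter table used (RefSeq, GRCm38.p6, 250 bases before to 50 after the gene's start, read 5′ to 3′ on the gene's strand). Capitals mark exact matches on either strand to GGAAGT, a core of ETS factor sites, to TATATA, which reads the same on both strands, and to CCGCCC, the GC box. Kdr lies on the minus strand at chr5:75978406-75978705, Rgs5 on the plus strand at chr1:169655251-169655550 and Acta2 on the minus strand at chr19:34255324-34255623.
Kdr: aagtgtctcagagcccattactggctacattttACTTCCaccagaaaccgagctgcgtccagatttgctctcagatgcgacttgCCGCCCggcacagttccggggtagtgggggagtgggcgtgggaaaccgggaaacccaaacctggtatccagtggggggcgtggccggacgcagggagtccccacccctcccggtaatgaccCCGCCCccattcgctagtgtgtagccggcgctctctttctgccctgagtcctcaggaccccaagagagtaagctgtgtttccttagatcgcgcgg
Rgs5: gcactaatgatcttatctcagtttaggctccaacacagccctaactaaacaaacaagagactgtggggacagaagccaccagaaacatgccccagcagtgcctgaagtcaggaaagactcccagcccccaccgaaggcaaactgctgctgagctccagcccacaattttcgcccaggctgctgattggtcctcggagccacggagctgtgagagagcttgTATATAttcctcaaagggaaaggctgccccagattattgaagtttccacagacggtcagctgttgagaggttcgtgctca
Acta2: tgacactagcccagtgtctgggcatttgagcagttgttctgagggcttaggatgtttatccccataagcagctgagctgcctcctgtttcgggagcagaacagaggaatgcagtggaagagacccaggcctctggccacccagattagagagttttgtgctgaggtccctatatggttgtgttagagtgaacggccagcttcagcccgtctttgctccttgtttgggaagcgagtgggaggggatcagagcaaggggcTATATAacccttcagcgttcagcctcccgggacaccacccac
The Kdr promoter holds an ETS core on the opposite strand and a pair of GC boxes, whereas those of the mural genes Rgs5 and Acta2 hold a TATATA run each and neither other motif. Of all 32851 promoters in the table, 23.8% hold GGAAGT, 35.7% CCGCCC and 5.67% TATATA. Among the 29 promoters of the 21 matched vessel genes, 6 hold GGAAGT, 12 CCGCCC and 2 TATATA. The matches describe these letters and were not tested as binding sites.

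Other junction and surface genes of endothelium did not pass the test between these genotypes, and most had lower means in Th-MycN/Casp2-/- tumors. Cdh5, the defining junction cadherin of endothelium, was at 27.6, 14.4, 12.4 and 10.8 CPM in Th-MycN and 7.20, 3.98, 4.15 and 10.7 CPM in Th-MycN/Casp2-/- tumors. The groups touched without overlapping, since MYCN391 and MYCNC2ko180 were level (log2 fold change -1.32 ± 0.44, adjusted p 0.156 by edgeR's likelihood ratio test). Emcn, the endomucin of capillaries and veins, was at 6.72, 4.72, 4.73 and 3.33 CPM and 2.09, 1.22, 3.18 and 2.84 CPM (-1.07 ± 0.44, adjusted p 0.366), and Plvap at 22.8, 17.1, 15.3 and 16.1 CPM and 8.14, 4.56, 10.0 and 13.8 CPM (-0.97 ± 0.38, adjusted p 0.330). In both genes every knockout tumor was below every wild-type tumor. Claudin-5 (Cldn5), the claudin that seals endothelial junctions, did not share this order, with 5.99, 1.38, 2.19 and 1.24 CPM and 1.15, 3.47, 8.87 and 4.87 CPM and wide overlap (0.76 ± 0.70, adjusted p 0.987).

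All 10 receptors had log2 fold changes below 0, and Kdr alone passed the likelihood ratio test. Flt1, a decoy receptor of vascular endothelial growth factor, was at 5.13, 4.36, 5.89 and 2.35 CPM in Th-MycN and 3.10, 5.27, 1.64 and 2.44 CPM in Th-MycN/Casp2-/- tumors (-0.50 ± 0.49, adjusted p 0.999 by edgeR's likelihood ratio test). Flt4, the receptor of lymphatic growth, was at 2.38, 2.83, 2.60 and 1.11 CPM and 0.792, 2.06, 0.771 and 1.06 CPM (-0.91 ± 0.59, adjusted p 0.860). The groups of Flt1 and Flt4 overlapped widely. Tek, the angiopoietin receptor, was at 4.46, 1.74, 2.54 and 1.42 CPM and 1.80, 1.35, 0.868 and 1.62 CPM (-0.84 ± 0.50, adjusted p 0.801), and its relative Tie1 at 12.0, 6.10, 6.18 and 4.32 CPM and 3.601, 3.21, 4.15 and 6.09 CPM (-0.75 ± 0.44, adjusted p 0.801), each with MYCN175 highest. The other 5 receptors (Eng, Ramp2, Ptprb, S1pr1 and Acvrl1) were between -0.67 and -0.14 on the log2 scale.

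Secreted genes included the markers of sprouting endothelium. Angpt2, the Tek ligand that loosens vessels, was at 5.44, 7.92, 4.10 and 2.66 CPM in Th-MycN and 2.59, 1.48, 2.31 and 2.03 CPM in Th-MycN/Casp2-/- tumors, all knockout tumors being below MYCN391, the lowest wild-type tumor (-1.25 ± 0.47, adjusted p 0.274 by edgeR's likelihood ratio test). Esm1, which marks endothelial tip cells, was at 0.855, 5.74, 2.94 and 1.11 CPM and 0.432, 0.386, 1.54 and 0.731 CPM, and MYCN175 and MYCN391 lay among the knockout tumors (-1.79 ± 0.67, adjusted p 0.277). Apln, another tip cell gene, was at 2.14, 7.26, 5.89 and 2.10 CPM and 2.74, 1.35, 2.31 and 2.60 CPM (-0.95 ± 0.57, adjusted p 0.813). In Apln and Esm1 the difference came mainly from MYCN235 and MYCN332. Mmrn2, an extracellular matrix protein of endothelium, was at 6.05, 4.72, 3.29 and 3.33 CPM and 1.51, 2.12, 0.868 and 2.27 CPM with no overlap (-1.34 ± 0.44, adjusted p 0.148), while Vwf, the clotting factor stored in endothelium, overlapped at 8.55, 6.17, 6.98 and 2.84 CPM and 4.54, 7.84, 2.31 and 8.12 CPM.

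The transcription factors of endothelium were at low levels in the neuroblastomas. Sox7 had the lowest log2 fold change of all 42 genes, -2.30 ± 0.81 (adjusted p 0.176 by edgeR's likelihood ratio test), with 1.10, 1.16, 0.923 and 1.30 CPM in Th-MycN and 0.216, 0.386, 0 and 0.244 CPM in Th-MycN/Casp2-/- tumors, so that it was at or near the level of 3 reads in the knockout tumors. Fli1 was at 4.58, 3.34, 3.23 and 4.45 CPM and 1.80, 2.25, 2.70 and 2.68 CPM without overlap. Erg was at 2.26, 0.654, 0.635 and 0.618 CPM and 0.576, 0.514, 0.964 and 0.812 CPM, and Tal1 at 0.489, 0.363, 0.404 and 0.432 CPM and 0.216, 0.321, 0.482 and 0.975 CPM. Erg was over 1 CPM only in MYCN175 and Tal1 in none of the 8 neuroblastomas. Lyl1 was at 1.71, 1.53, 2.31 and 1.24 CPM and 1.30, 1.93, 3.28 and 3.17 CPM, among the 6 of 42 genes with a log2 fold change above 0 (0.49 ± 0.37, adjusted p 0.939). Ece1 was another, at 22.7, 45.3, 49.9 and 44.0 CPM and 59.5, 57.9, 38.2 and 55.1 CPM (0.38 ± 0.28, adjusted p 0.939), with MYCN175 lowest.

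Groups that did not overlap numbered 10 of 42 genes, all with the knockout tumors below (Pecam1, Cdh5, Kdr, Emcn, Fli1, Sox7, Plvap, Angpt2, Mmrn2 and Rgs5), against 3.68% of all genes tested with the knockout tumors below and 2.94% with them above. The 28 endothelial genes not shared with blood cells summed to 179.5 to 254 CPM in Th-MycN and 137.6 to 203.7 CPM in Th-MycN/Casp2-/- tumors. Ece1 made up a large share of these sums. Without it, an alternative chosen after seeing the data, the sums of the other 27 genes were 231.3, 180.7, 181.2 and 135.6 CPM in Th-MycN and 106.7, 101.1, 99.4 and 148.7 CPM in Th-MycN/Casp2-/- tumors, so that MYCN391 and MYCNC2ko180 still crossed. The sums of the 8 genes shared with blood cells did not overlap, at 40.2 to 60.5 CPM and 22.5 to 33.6 CPM. Pecam1 made up a large share of these sums, at 17.9 to 26.99 CPM and 8.29 to 12.7 CPM, and the sum without it was not taken. Taken singly, 2 of the 8 genes, Pecam1 and Fli1, did not overlap between the genotypes, and the others did.

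Markers of other cells in the same neuroblastomas were read beside these differences, and their part in the result was not tested. No marker of platelets, fibroblasts, smooth muscle, skeletal muscle, fat, Schwann cells, neuroblasts, B cells, T cells or macrophages was called between the genotypes. The 7 sympathetic neuroblast markers summed to 3948 to 4634 CPM in Th-MycN and 2276 to 3611 CPM in Th-MycN/Casp2-/- tumors, which did not overlap. Macrophage markers, 5 of 6 found in the files, were at 87.4 to 128.2 CPM and 69.9 to 110.7 CPM, the 7 platelet markers at 10.9 to 22.1 CPM and 13.2 to 24.9 CPM, and the 7 fibroblast markers at 413.2 to 635.9 CPM and 281.4 to 814.9 CPM. The platelet sums were mostly 1 gene, Gp1bb, at 8.09 to 16.5 CPM and 9.06 to 19.2 CPM, so they say little about platelets as a whole. The 6 smooth muscle markers that are not among the 42 genes were at 32.8 to 117.3 CPM and 24.1 to 56.3 CPM, and the 5 fat cell markers at 13.4 to 196 CPM and 13.7 to 67.4 CPM. The 6 Schwann cell markers were at 34.4 to 75.9 CPM and 63.1 to 95.1 CPM. When the tumors with skeletal muscle RNA, MYCN175 and MYCNC2ko118, were both left out, an alternative chosen after seeing the data, the likelihood ratio test called 1 of the 42 genes, Pecam1, and the log2 fold changes of Kdr, Rgs5 and Acta2 were -1.54, -1.42 and -1.65.

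**Figure D3:**
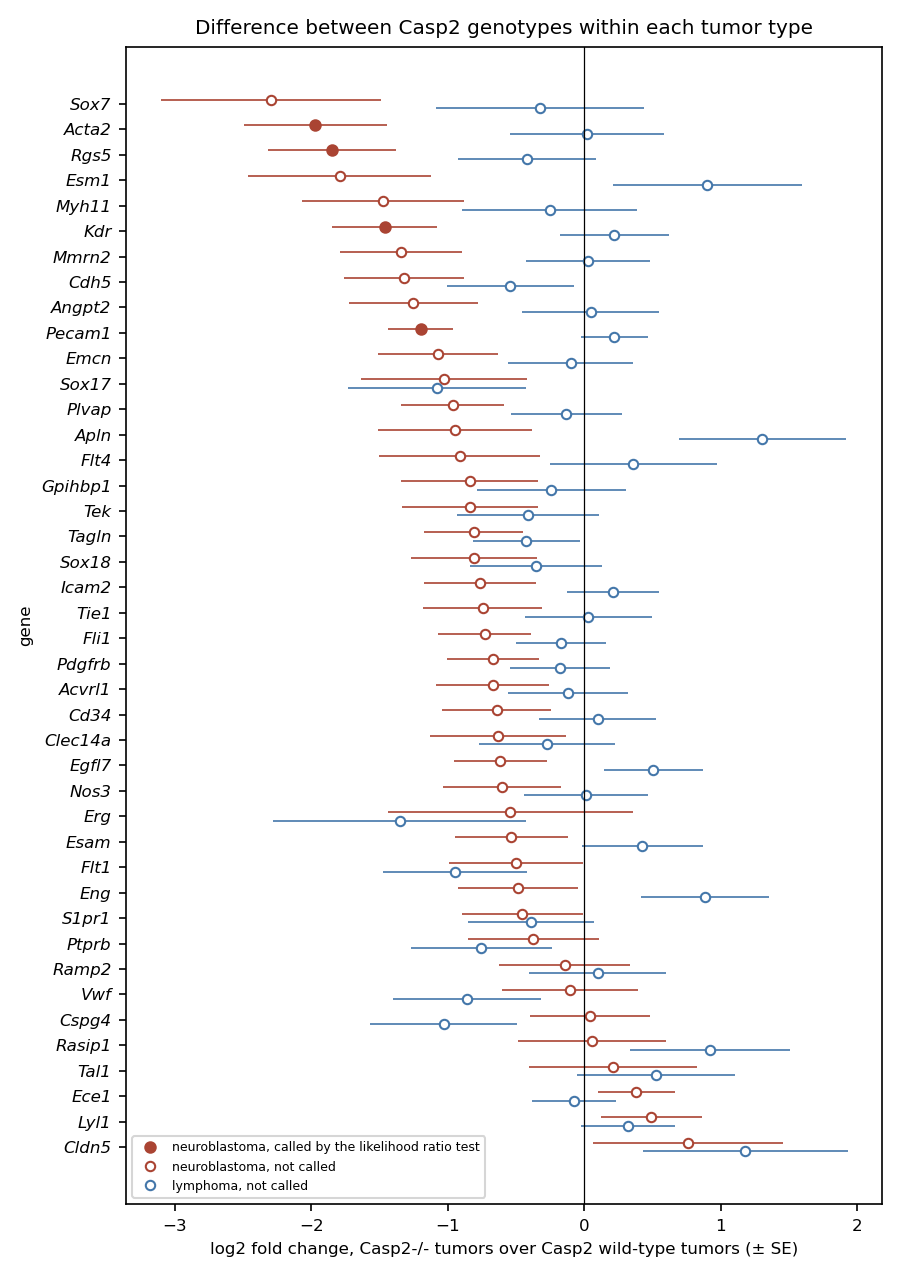
Log2 fold change (± SE) of each vessel gene between Casp2-/- and Casp2 wild-type tumors, in neuroblastoma (red) and lymphoma (blue), ordered by the value in neuroblastoma, with genes called by the likelihood ratio test as filled points. In neuroblastoma 36 of 42 genes lie below 0 and 4 are called, whereas the lymphoma values lie on both sides of 0 and 0 are called.

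In the lymphomas the vessel genes showed no called difference between Casp2 genotypes. By edgeR's likelihood ratio test 0 of 42 genes rose and 0 fell, against 1.14% and 0.302% of all genes tested, and the quasi-likelihood test also called 0 in either direction, against 0.0941% and 0.047%. The log2 fold changes were above 0 for 20 and below 0 for 22 genes, with a median of -0.09, 1 gene had an unadjusted p under 0.05, and 0 of 42 genes separated the groups, against 1.75% of all genes with the knockout tumors above and 1.96% with them below. Pecam1 was at 74.6, 129.6, 137 and 122 CPM in EμMyc and 121, 146 and 137 CPM in EμMyc/Casp2-/- tumors (0.22 ± 0.25, adjusted p 0.843 by the likelihood ratio test). Kdr was at 7.35, 18.7, 16.2 and 12.5 CPM and 11.5, 24.6 and 11.5 CPM. In both genes the 2 groups covered much the same range.

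Spread between lymphomas of 1 group was wide for most vessel genes. Cdh5 was at 26.9, 62.9, 27.7 and 30.8 CPM in EμMyc and 18.9, 38.7 and 18.5 CPM in EμMyc/Casp2-/- tumors (-0.54 ± 0.47, adjusted p 0.807 by edgeR's likelihood ratio test), with EuMyc743b far above the other EμMyc tumors. Erg was at 1.57, 33.8, 2.36 and 2.23 CPM in EμMyc tumors, again with EuMyc743b highest, and at 3.32, 6.84 and 1.51 CPM in EμMyc/Casp2-/- tumors. Apln, the gene with an unadjusted p under 0.05, was at 3.94, 1.45, 2.36 and 3.19 CPM and 11.9, 6.26 and 2.32 CPM (1.30 ± 0.61, adjusted p 0.422), and its highest value was in EuMycC2ko215. That tumor also had the highest levels of Cldn5, at 3.15, 8.90, 2.52 and 2.34 CPM in EμMyc and 16.8, 8.51 and 3.63 CPM in EμMyc/Casp2-/- tumors, and of Esm1, at 2.01, 3.42, 4.17 and 2.65 CPM and 10.4, 4.26 and 2.83 CPM. It is the shallowest library and the one with the most T cell RNA, and the part of either in these levels was not tested. Of the marker lists, smooth muscle with 1 gene (Smtn) and T cells with 3 genes (Cd3d, Cd8a and Cd4) were called higher in EμMyc/Casp2-/- tumors by the likelihood ratio test. By the quasi-likelihood test their adjusted p-values were 0.182, 0.153, 0.140 and 0.262. Each was highest in EuMycC2ko215, with Smtn at 72.3 CPM there against 18.5 and 9.29 CPM in EuMycC2ko239 and EuMycC2ko245. Cd8a was at 362 CPM against 9.85 and 7.57 CPM in the same order.

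The mural genes of the lymphomas overlapped between genotypes throughout. Rgs5 was at 6.65, 28.3, 15.6 and 14.0 CPM in EμMyc and 7.42, 17.1 and 11.5 CPM in EμMyc/Casp2-/- tumors. Acta2 was at 15.4, 28.6, 22.3 and 23.3 CPM and 29.9, 28.8 and 9.49 CPM, and Tagln at 20.6, 47.4, 27.9 and 33.8 CPM and 20.3, 28.5 and 23.4 CPM. The 6 mural genes summed to 63.2 to 141.9 CPM and 59.8 to 100.7 CPM, the highest being EuMyc743b. The 28 endothelial genes not shared with blood cells summed to 324.5 to 608.4 CPM in EμMyc and 274.9 to 533.3 CPM in EμMyc/Casp2-/- tumors.

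Whether the effect of Casp2 loss differed between lymphoma and neuroblastoma was tested by the interaction of genotype and tumor type. Pecam1 passed by edgeR's likelihood ratio test, with a genotype effect higher by 1.42 ± 0.34 on the log2 scale in lymphoma than in neuroblastoma (adjusted p 0.0106, and 0.218 by the quasi-likelihood test). This was 1 of 42 genes, against 0.726% of all genes tested, and 0 genes passed in the other direction, against 0.188%. Pecam1 is shared with blood cells, and their part in this difference was not tested. Of the 28 endothelial genes not shared with blood cells, 0 passed in either direction. Leaving out 1 of the 15 tumors kept the Pecam1 call in 14 fits and ended it without MYCN391 (adjusted p 0.0504). For Kdr the difference was 1.68 ± 0.55 (adjusted p 0.131), and 34 of 42 genes had differences above 0 with a median of 0.68, against 50.6% of all genes below 0. The quasi-likelihood test called 0 of the 42 genes in either direction, against 0.0336% of all genes above and 0.0202% below, and 9 of the 42 had an unadjusted p under 0.05 by the likelihood ratio test.

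**Figure D4:**
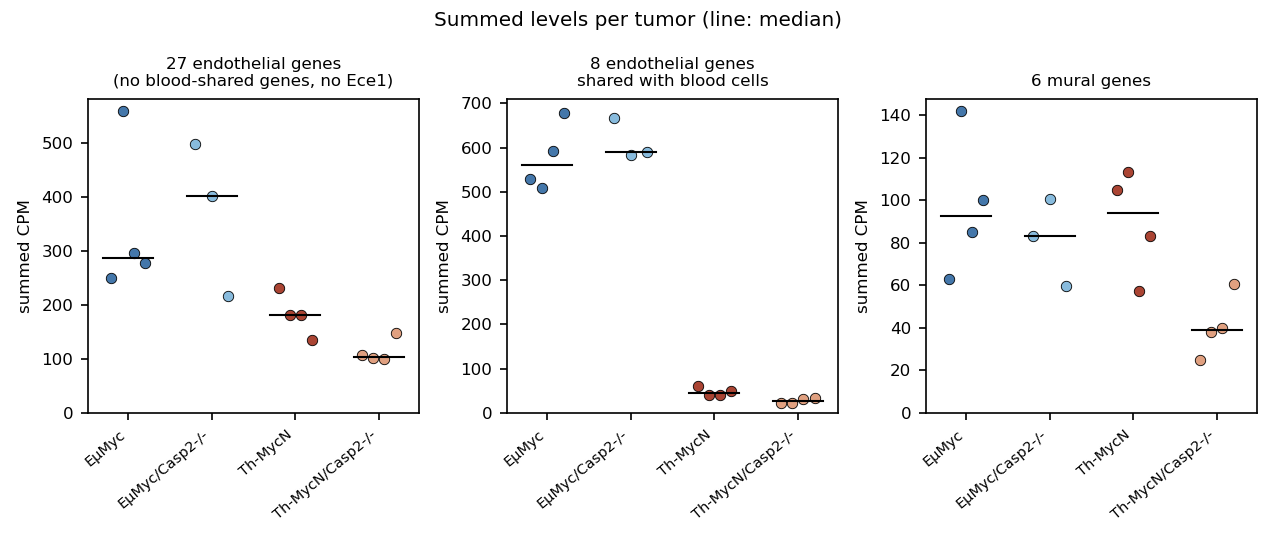
Summed CPM in each tumor (points) with the group median (line) for 27 endothelial genes (without Ece1 and without the genes shared with blood cells), for the 8 endothelial genes shared with blood cells, and for the 6 mural genes. The 8 shared genes sum to 507.9 CPM or more in every lymphoma and to 60.5 CPM or less in every neuroblastoma, and the mural sums of both lymphoma groups and of Th-MycN tumors overlap.

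Between the tumor types of wild-type Casp2, 18 of the 36 endothelial genes were higher in lymphoma and 0 of the 6 mural genes were. In EμMyc against Th-MycN tumors 18 of 42 genes (42.9%) were higher and 1, Cspg4, was lower by edgeR's likelihood ratio test, against 18.9% of all genes higher and 28.5% lower, and the quasi-likelihood test called as many, against 18.3% and 27.8%. The 8 genes shared with blood cells were all called higher, as were 10 of the other 28 endothelial genes and 0 of the 6 mural genes. The median log2 fold change was 3.61 for the shared genes, 0.82 for the other endothelial genes and -0.06 for the mural genes, beside -0.04 for all genes tested. Of the 42 genes, 15 lay wholly above and 1 wholly below, against 26.4% and 32.9% of all genes. B cell markers differed in the same direction as the shared genes, at the levels given above, and the share of tumor B cells in these levels was not tested.

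The highest folds were those of 3 genes shared with blood cells. Lyl1 was at 136, 122, 177 and 241 CPM in EμMyc tumors and, as given above, 1.24 to 2.31 CPM in Th-MycN tumors (log2 fold change 6.63 ± 0.35). Icam2 was at 62.4, 54.1, 62.1 and 101 CPM against 1.59, 0.872, 1.44 and 1.54 CPM (5.66 ± 0.35), and Fli1 at 101, 89.1, 109 and 95.1 CPM against 3.23 to 4.58 CPM (4.65 ± 0.32). In each, every lymphoma was above every neuroblastoma, and the adjusted p-values were 6.9e-55, 1.0e-45 and 7.2e-37 by edgeR's likelihood ratio test and 2.0e-09, 4.7e-09 and 1.2e-08 by its quasi-likelihood test. S1pr1 was at 134, 39.0, 80.1 and 94.1 CPM in EμMyc and 8.80, 5.01, 3.69 and 4.57 CPM in Th-MycN tumors, and Tal1 at 1.05, 2.14, 0.866 and 1.38 CPM in EμMyc tumors, each again with no overlap.

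Among genes largely restricted to endothelium, Cdh5 was higher in EμMyc than in Th-MycN tumors (log2 fold change 1.19 ± 0.43, adjusted p 0.0123 by edgeR's likelihood ratio test), although MYCN175 at 27.6 CPM was level with EuMyc614 and EuMyc829. Flt1 was higher by 1.39 ± 0.48 (adjusted p 0.0083). Pecam1, which blood cells share, was higher by 2.33 ± 0.23 (adjusted p 2.3e-21) and was called in 8 of 8 fits without 1 tumor. Kdr, at 0.81 ± 0.37, was not called because its change was under 2-fold (adjusted p 0.0475, and 0.0507 by the quasi-likelihood test). Flt4, at 1.10 ± 0.57, was not called because of its adjusted p of 0.0847. Leaving out EuMyc743b lowered the number of genes called higher from 18 to 9, and among the genes lost were Cdh5 (0.81, adjusted p 0.0949) and Flt1 (1.05, adjusted p 0.0569).

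Among Casp2-/- tumors the endothelial genes of lymphoma stood further above those of neuroblastoma. By edgeR's likelihood ratio test 31 of 42 genes (73.8%) were higher and 1 lower in EμMyc/Casp2-/- than in Th-MycN/Casp2-/- tumors, against 20.5% and 27.6% of all genes, and by the quasi-likelihood test 30 and 1, against 19.7% and 26.6%. Kdr, at the levels given above, did not overlap between these groups (log2 fold change 2.49 ± 0.41, adjusted p 9.5e-09 by the likelihood ratio test), nor did Cdh5 (1.96 ± 0.47, adjusted p 9.6e-05) or Pecam1 (3.75 ± 0.25, adjusted p 5.7e-44). Flt4 was higher by 2.37 ± 0.63 (adjusted p 0.0004), whereas Flt1 was not called (0.95 ± 0.53, adjusted p 0.110). Icam2, Lyl1 and Fli1 again led, at 6.64 ± 0.40, 6.46 ± 0.37 and 5.22 ± 0.35. In all, 25 of 42 genes lay wholly above and 1 wholly below, against 23.6% and 31.2% of all genes.

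Mural genes divided in this last comparison. Acta2, Rgs5 and Tagln were called higher in EμMyc/Casp2-/- tumors by the likelihood ratio test, Rgs5 not by the quasi-likelihood test (adjusted p 0.0596), and Cspg4 was called lower. Cspg4 was at 3.15, 3.34, 1.18 and 2.97 CPM in EμMyc and 1.37, 1.502 and 1.01 CPM in EμMyc/Casp2-/- tumors, below every neuroblastoma, with log2 fold changes of -1.07 ± 0.45 among wild-type tumors (adjusted p 0.0310 by edgeR's likelihood ratio test) and -2.15 ± 0.53 among knockout tumors (adjusted p 0.0002). The first call ended in 4 of 8 fits that left out 1 tumor, those without EuMyc614, EuMyc829, MYCN175 or MYCN332. Over both comparisons of tumor types, 17 genes were called higher in both, 1 lower in both, 14 among knockout tumors alone, 1 among wild-type tumors alone and 9 in neither. The matching shares of all genes tested were not taken, so these counts are a description alone. The interaction test above is the test of whether the type difference changes with genotype. It called Pecam1 by the likelihood ratio test and 0 of the 42 genes by the quasi-likelihood test.

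Levels of many vessel genes were correlated with those of Cdh5 across the neuroblastomas, where the values of a tumor share 1 library. Over the 8 neuroblastomas the median Spearman rho of 39 other genes with Cdh5 was 0.738 (median Pearson r 0.758), 35 of 39 were above 0, and by permutation tests, two-sided and adjusted by Benjamini-Hochberg over the 39 relations, 12 passed by rho and 14 by r. The share of all genes that would pass was not taken, so these counts cannot be set against it. Tumors were permuted across both genotypes, so the p-values also hold the difference between genotypes. The closest were Plvap (rho 0.952, exact permutation p 0.0011, adjusted 0.0356, r 0.888, p 0.0024, adjusted 0.0430), Tie1 (rho 0.929, r 0.900), and Angpt2, Emcn and Mmrn2 (rho 0.905 each, r 0.767, 0.837 and 0.874). The least alike were Ece1 (rho -0.524, r -0.593), Lyl1 (-0.310, r -0.298), Rasip1 (-0.167, r 0.351), Cldn5 (-0.0714, r -0.135) and Cspg4 (0.214, r -0.0890), none of which passed. Without MYCN175 and MYCNC2ko144, the tumors farthest from the median of Cdh5, the median r was 0.629. The relations were also taken within genotype, where the median r was 0.493, and for Kdr r went from 0.763 to 0.0827.

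**Figure D5:**
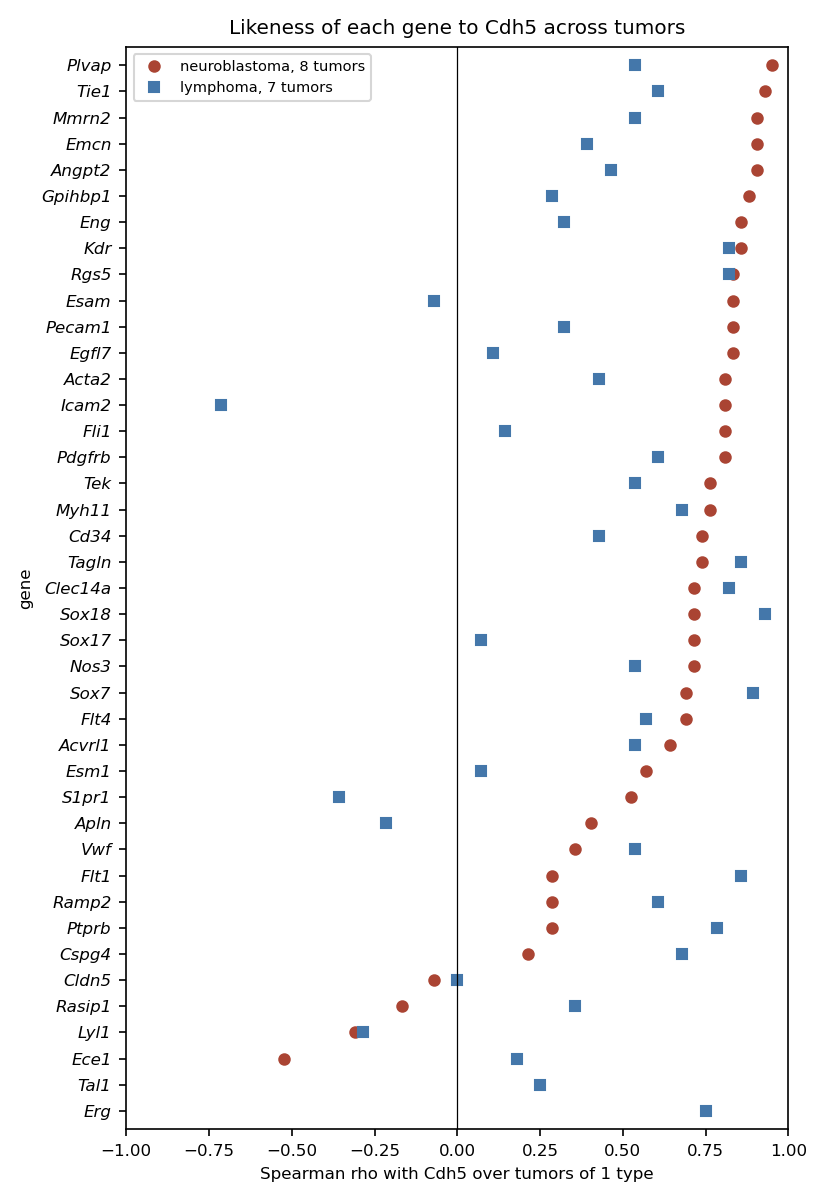
Spearman rho of each vessel gene with Cdh5 over the 8 neuroblastomas (circles) and the 7 lymphomas (squares), ordered by the value in neuroblastoma. Tal1 and Erg were too low in the neuroblastomas to be ranked there. Plvap and Tie1 are nearest to 1 in neuroblastoma, whereas Icam2 is lowest in lymphoma at -0.714.

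In the 7 lymphomas the median rho of 41 genes with Cdh5 was 0.536, and 0 of 41 passed after adjustment by rho or by r. Within genotype the median r was 0.543 in the lymphomas, beside the 0.493 in the neuroblastomas, and the difference between tumor types was not tested. Highest were Sox18 (rho 0.929, r 0.797), Sox7 (0.893, r 0.661), Flt1 (0.857, r 0.904), Tagln (0.857, r 0.874), and Clec14a, Kdr and Rgs5 (0.821 each, r 0.674, 0.598 and 0.806), and lowest were Icam2 (-0.714, r -0.632), S1pr1 (-0.357, r -0.250), Lyl1 (-0.286, r -0.559), Apln (-0.214, r -0.471) and Esam (-0.0714, r -0.0912). Of the 5 lowest, Icam2, S1pr1 and Lyl1 are shared with blood cells. Without EuMyc743b and EuMycC2ko245, the tumors farthest from the median of Cdh5, the median r fell from 0.527 to -0.264. Genes differed in this, with an r of 0.942 for Sox7 and 0.866 for Flt4 but -0.701 for Acvrl1 and -0.854 for Esam. Leaving out these tumors also narrows the range of Cdh5, and the cause of the fall was not tested.

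Signalling partners of the vessel genes were taken as a list of 32 ligands, receptors and mediators outside the 42 genes, of which 29 could be tested. None was called between Casp2 genotypes in either tumor type by edgeR's likelihood ratio test. Of all genes tested, 0.188% rose and 0.625% fell in neuroblastoma, and 1.14% and 0.302% in lymphoma. In EμMyc against Th-MycN tumors 7 partners were higher and 11 lower, against 18.9% and 28.5% of all genes tested. Among Casp2-/- tumors 8 were higher and 8 lower, against 20.5% and 27.6%. Whether these counts differ from those shares was not tested. Vegfa, the main ligand of Kdr, was at 43.1, 90.5, 103 and 43.2 CPM in Th-MycN and 48.8, 31.3, 34.4 and 57.0 CPM in Th-MycN/Casp2-/- tumors, and at 44.4, 52.4, 86.1 and 26.8 CPM in EμMyc and 34.6, 31.6 and 50.2 CPM in EμMyc/Casp2-/- tumors. MYCN235 and MYCN332, the neuroblastomas highest in Vegfa, were also those highest in Kdr, Apln and Esm1. Dll4, the Notch ligand of tip cells, was at 3.42, 10.1, 10.9 and 3.52 CPM in Th-MycN and 4.11, 4.30, 2.41 and 5.12 CPM in Th-MycN/Casp2-/- tumors, with the same 2 tumors highest. Pdgfb, by which endothelium recruits pericytes, was at 8.12, 7.63, 9.18 and 9.02 CPM and 4.18, 5.01, 9.26 and 8.69 CPM and overlapped. Vegfc was between 0.551 to 6.68 CPM, Pgf between 0.171 to 4.92 CPM and Angpt1, the stabilizing ligand of Tek, between 0.101 to 3.71 CPM over all 15 tumors. Nrp1, a co-receptor of Kdr that neurons also make, was at 21.4 to 124 CPM in the neuroblastomas and 7.03 to 24.7 CPM in the lymphomas.

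Markers of lymphatic vessels did not move together between tumor types. Lyve1, their hyaluronan receptor, was at 3.24, 14.5, 11.3 and 23.0 CPM in EμMyc and 4.30, 29.6 and 18.3 CPM in EμMyc/Casp2-/- tumors. In the neuroblastomas Lyve1 was at 0 to 2.70 CPM, while Prox1, the lymphatic master regulator that neural cells also make, was at 46.1 to 178 CPM there and 0.551 to 2.50 CPM in the lymphomas. Pdpn, a surface protein of lymphatic vessels and other cells, was lower in EμMyc than in Th-MycN tumors (log2 fold change -3.78 ± 0.77, adjusted p 2.93e-05 by edgeR's likelihood ratio test), as was Prox1 (-7.28 ± 0.46, adjusted p 1.38e-39), whereas Lyve1 was higher (5.39 ± 0.95, adjusted p 3.13e-06) and so was Reln (4.01 ± 0.84, adjusted p 6.09e-05). Flt4, the lymphatic receptor among the 42 genes, was at 1.92, 7.44, 5.28 and 4.46 CPM in EμMyc and 1.76, 10.5 and 5.86 CPM in EμMyc/Casp2-/- tumors, and EuMycC2ko239 was highest in both Lyve1 and Flt4. The chemokine Ccl21a was listed at 0 in all 15 tumors. The 5 lymphatic markers together came to 27.03 to 886 CPM in EμMyc, 111.8 to 337.8 CPM in EμMyc/Casp2-/-, 79.0 to 302.6 CPM in Th-MycN and 121.5 to 218.2 CPM in Th-MycN/Casp2-/- tumors. The highest of these sums, in EuMyc614, was mostly Reln, which also marks cells other than lymphatic endothelium, at 878.2 CPM. Markers of high endothelial venules, the lymph node vessels through which lymphocytes enter, were found in the files for 5 of 6 genes and came to 1.49 to 26.4 CPM in EμMyc and 1.61 to 30.9 CPM in EμMyc/Casp2-/- tumors, beside 7.35 to 15.1 CPM in the 8 neuroblastomas. The neuroblastoma sums were mostly Darc, at 6.12 to 13.4 CPM. Glycam1 was at 0 to 0.643 CPM there, 0.0875 to 20.0 CPM in EμMyc and 0.303 to 12.9 CPM in EμMyc/Casp2-/- tumors. In EμMyc against Th-MycN tumors Glycam1 was higher (log2 fold change 9.20, adjusted p 4.02e-05 by edgeR's likelihood ratio test). Darc was lower (-1.61 ± 0.61, adjusted p 0.0171), so the sums hide opposite differences. Of 9 red cell markers 7 were found, 4 globin genes were listed at 0 throughout, and the sums were 1.09 to 44.5 CPM in the lymphomas, highest in EuMycC2ko245, and 1.38 to 6.41 CPM in the neuroblastomas. The highest of these sums was mostly Alas2, at 41.3 CPM. A count of 0 in every tumor, for the globin genes as for Ccl21a, does not show that the RNA was absent, and its cause was not tested. None of these markers that passed the filter on low counts was called between Casp2 genotypes.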

How the data were processed

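Polyadenylated RNA of 15 frozen tumors was sequenced by the authors (Illumina, unpaired reads, 50 bases long), checked with FastQC and aligned with STAR to mm10/GRCm38. The deposited files hold STAR's read counts per gene, unnormalized, in 3 columns (both strands and each strand). The column for the second strand, which the study used, was taken here. It holds 49.6% to 50.2% of the reads of both strands, so the libraries are not stranded, and reads of overlapping antisense genes (exonic for 7 of the 42 genes) cannot be told apart. Summed over the antisense genes, the exonic overlap was 1334 bases for Nos3, 971 for Tagln and 720 for Rasip1. It was 4 to 148 bases for Lyl1, Eng, Acvrl1 and Cd34. The levels of Tagln given above may therefore include reads of its antisense genes. The annotation release is not given in the sources used here, and gene lengths and positions are from GENCODE vM21.

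Counts were fitted with edgeR 4.0.16 in R 4.3.3 over 14880 of 23329 genes, those that exceeded 1 CPM in 3 or more tumors, with TMM scaling, a mean for each of the 4 groups over all 15 tumors, and the likelihood ratio test, because the study's tables give likelihood ratios. Quasi-likelihood p-values are given beside it. A call required a Benjamini-Hochberg adjusted p under 0.05, over all genes tested, and a log2 fold change beyond 1 in either direction. The fits were tested on simulated counts. Correlations used log2 CPM with a prior count of 2 and exact permutation of tumors, over 39 genes in neuroblastoma and 41 in lymphoma. Alternatives were the quasi-likelihood test, DESeq2 1.42.0, RLE size factors, no low-count filter, reads of both strands, the compared groups alone, sex as a covariate and leaving out each tumor.

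The genes, lists and tests were chosen with earlier results of these data known. The rule for genes with values per tumor took the growth factor receptors, the main junction, blood-shared, sprouting and mural genes, every called gene of the genotype comparisons and the 3 highest folds between tumor types. The 5 genes most and least like Cdh5 and 7 partners were to be named. Values per tumor of Mmrn2, Sox7, Ece1, Lyve1 and single partners, and the names Prox1, Pdpn, Ccl21a, Reln, Glycam1, Darc and Gp1bb, were added after their values were seen. The 32 partners and 13 marker lists are from background knowledge. The part of depth in the precision is given as the CPM of 3 reads, which covers counting error alone. A further EμMyc/Casp2-/- tumor that the study removed was not analysed here.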

Additional observations from a re-analysis of the deposited data

Results flagged for a closer look

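Pecam1, which blood cells share, had a genotype effect that was 1.42 higher on the log2 scale in lymphoma than in neuroblastoma, by a test of the difference itself (edgeR's likelihood ratio test, adjusted p 0.0106, and 0.218 by its quasi-likelihood test).

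Single tumors that stood far from the other 3 of their group were looked for in 90 sets of 4 tumors (26 genes and 4 sums, in 3 groups), by the gap to the nearest tumor as a share of the group's range. Chance gives about 1 in 20 such sets, and 11 of 90 were found. EuMyc743b was the highest EμMyc tumor in 7 of them: Cdh5 at 62.9 CPM against 26.9 to 30.8 CPM (share 0.893), Tie1 at 27.6 CPM against 10.7 to 13.1 CPM (0.859), Cldn5 at 8.90 CPM against 2.34 to 3.15 CPM (0.876), Vwf at 20.0 CPM against 7.01 to 8.49 CPM (0.886), Erg at 33.8 CPM against 1.57 to 2.36 CPM (0.976), Pdgfrb at 29.2 CPM against 13.8 to 16.0 CPM (0.854), and the sum of the 28 endothelial genes not shared with blood cells at 608.4 CPM against 324.5 to 339.5 CPM (0.947). Cspg4 was lowest in EuMyc829, at 1.18 CPM against 2.97 to 3.34 CPM (0.831). Among the neuroblastomas, Erg was highest in MYCN175, at 2.26 CPM against 0.618 to 0.654 CPM (0.978), Cspg4 was highest in MYCNC2ko176, at 9.74 CPM against 4.32 to 4.55 CPM (0.958), and Kdr was lowest in MYCNC2ko176, at 2.41 CPM against 2.95 to 3.01 CPM (0.911). The genes share tumors and are not independent of each other.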

How the results depend on the processing

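The number of vessel genes lower in Th-MycN/Casp2-/- than in Th-MycN tumors was 4 by the likelihood ratio test and 0 by the quasi-likelihood test, 2 with reads of both strands, 1 with sex as a covariate and 1 without MYCN175 and MYCNC2ko118 (an alternative chosen after seeing the data). It was 4 by DESeq2, with RLE size factors and without the low-count filter, 5 with the compared groups alone, and 1 to 3 when 1 tumor was left out. Pecam1 was among the genes called in each of these except the quasi-likelihood test. The division of sex between the groups is not given here, so its overlap with genotype cannot be judged from these counts. The interaction called 1 gene, 0 by the quasi-likelihood test and 0 to 3 when 1 tumor was left out (3 without EuMycC2ko245, 2 without MYCNC2ko180). In lymphoma 0 genes were called higher between genotypes, and 0 to 1 when 1 tumor was left out (1 without EuMycC2ko245). Between EμMyc and Th-MycN tumors the number higher was 15 to 18 under the other alternatives and 9 to 20 when 1 tumor was left out (9 without EuMyc743b), and the number lower was 1, 0 with sex as a covariate and 0 to 1 when 1 tumor was left out. Among Casp2-/- tumors it was 29 to 32 higher under the other alternatives and 28 to 32 when 1 tumor was left out. The cause of these changes was not tested, and fits that leave out a tumor have fewer samples. No log2 fold change named in the text for a called gene changed sign under any alternative run, and the summed levels of the 36 endothelial and the 6 mural genes moved by less than 1 SD. Depth limits Sox7 and Tal1, whose levels were within a few reads of 0 in several tumors. No paired analysis was possible because the labels give each tumor its own mouse number, and no numbers are shared between groups.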
